A study of Mus musculus with 6 samples.

Results

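A set of 10 genes linked to sebaceous glands and their lipids was followed in tick-bitten mouse ear skin. The genes were Elovl3, Scd3, Far2, Awat1, Awat2, Dgat2l6, Soat1, Mgst1, Mc5r and Krt79. Their rows were picked out by gene symbol, and all 10 were found among the 15667 genes listed, with none below a mean of 1 CPM (read counts scaled to a common library total), so that all 10 were tested among 14306 genes. The skin came from adiponectin-deficient mice (KO, Adipo-/-, n = 3) and their wild-type littermates (WT, Adipo+/+, n = 3). The KO mice carried the B6;129-Adipoq tm1Chan/J null allele of the gene for the fat cell hormone adiponectin, in every cell of the body and on a mixed strain background. All mice were females of 7 to 8 weeks on which 10 Ixodes scapularis nymphs each had been placed for 48 h, and RNA of 1 ear punch per mouse was sequenced. Every library was from bitten skin, so the values compare genotypes after a bite and say nothing of the bite itself, and unbitten skin was not analysed here.

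Sebaceous glands are attached to hair follicles and release sebum by the bursting of whole, lipid-filled cells called sebocytes. Mouse sebum is rich in wax esters and cholesterol esters and also holds triglycerides. Its very long fatty acids are made by elongases and desaturases, a reductase turns some of them into fatty alcohols, and acyltransferases join acids to alcohols, to cholesterol or to glycerol. In a bulk punch of skin, fewer sebocytes and less RNA per sebocyte cannot be told apart.

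No gene of the 10 passed the test between genotypes, although all 10 had a log2 fold change (KO minus WT, from log2(CPM + 0.5)) below 0, or 9 of 10 where libraries were rescaled by median-of-ratios or by quantiles, when Awat1 turned to 0.02 and 0.04. Of all tested genes, 56.7% also lay below 0, a share that was 50.7% and 48.7% after these rescalings. Without WT replicate 1 or without KO replicate 3 the count below 0 was 7 of 10, and without WT replicate 3 it was 9. The median of the 10 was -0.21, against -0.03 over all tested genes. With limma, 0 of 10 had an unadjusted p below 0.05, where 2.88% of all genes did, 1.82% lower and 1.06% higher in KO. With the Benjamini-Hochberg adjustment 0 of 10 passed, against 0.014% of all genes, and limma's voom fit gave 0 by both measures as well. The adjusted p was 0.999 for Awat1 and 0.998 for each of the other 9 genes. Dgat2l6 alone of the 10 had no overlap between KO and WT values, where 7.84% of all genes were separated in this way.

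The punches differed more in the levels of hair follicle genes than in any sebaceous gene. Whether the number of follicles or only their state differed was not tested. Summed over 22 hair follicle genes, the level ranged from 14.5 to 24869 CPM in WT and from 1018 to 9844 CPM in KO, with replicates 1 and 2 of WT nearly devoid of these transcripts and replicate 3 the highest of all. All 22 had a log2 fold change above 0, with a median of 2.51 and 0 past an unadjusted p below 0.05, although the highest library was a WT one. All 14 adipocyte markers had lower means in KO, 5 of them at an unadjusted p below 0.05, with a median log2 fold change of -0.71 and summed levels of 1134 to 1681 CPM in WT against 672 to 1498 CPM in KO. Skeletal muscle genes had lower means in 10 of 10, 3 at an unadjusted p below 0.05, epidermal keratinocyte genes had higher means in 10 of 11 and macrophage genes lower means in 8 of 10, with 0 past an unadjusted p below 0.05 in the last 2 lists. Adipoq, the targeted gene, was at 30.5, 63.7 and 49.6 in WT against 0, 0.561 and 0 CPM in KO. The spacing of the values implied 3403773 to 6591320 reads per library, at which 3 reads equal 0.455 to 0.881 CPM.

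The promoter windows of 5 of the genes are shown. Dgat2l6, Awat1, Far2 and Soat1 were all highest in the same library, WT replicate 1. Awat2 was added as the relative that lies on the other side of Dgat2l6 from Awat1. Each runs from 250 bases before the start site to 50 from it on, 5′ to 3′ on the strand of the gene, from RefSeq on GRCm38.p6. The windows are chrX:100524588-100524887 (+) for Dgat2l6, chrX:100571997-100572296 (+) for Awat1, chrX:100442668-100442967 (-) for the outer of the starts listed for Awat2, chr6:148047166-148047465 (+) for Far2 and chr1:156474279-156474578 (-) for Soat1. Capitals mark matches to CCAAT (or ATTGG on the opposite strand) and to the GC box GGGCGG (or CCGCCC).
Dgat2l6: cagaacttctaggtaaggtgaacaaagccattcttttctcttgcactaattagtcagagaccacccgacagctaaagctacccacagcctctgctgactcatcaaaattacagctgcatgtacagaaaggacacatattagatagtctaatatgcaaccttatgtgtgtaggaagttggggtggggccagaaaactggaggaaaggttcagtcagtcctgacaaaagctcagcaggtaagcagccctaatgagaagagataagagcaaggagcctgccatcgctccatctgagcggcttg
Awat1: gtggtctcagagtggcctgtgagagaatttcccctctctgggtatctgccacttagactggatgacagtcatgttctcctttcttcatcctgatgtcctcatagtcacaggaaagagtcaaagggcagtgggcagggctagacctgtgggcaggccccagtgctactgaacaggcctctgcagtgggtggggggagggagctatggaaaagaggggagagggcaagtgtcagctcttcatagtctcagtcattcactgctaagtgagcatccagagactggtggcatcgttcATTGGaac
Awat2: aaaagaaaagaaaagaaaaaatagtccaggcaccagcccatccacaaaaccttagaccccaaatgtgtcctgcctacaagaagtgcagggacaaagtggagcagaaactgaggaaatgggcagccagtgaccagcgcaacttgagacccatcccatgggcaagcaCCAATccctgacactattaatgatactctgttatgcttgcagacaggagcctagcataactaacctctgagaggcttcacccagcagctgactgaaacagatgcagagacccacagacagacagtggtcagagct
Far2: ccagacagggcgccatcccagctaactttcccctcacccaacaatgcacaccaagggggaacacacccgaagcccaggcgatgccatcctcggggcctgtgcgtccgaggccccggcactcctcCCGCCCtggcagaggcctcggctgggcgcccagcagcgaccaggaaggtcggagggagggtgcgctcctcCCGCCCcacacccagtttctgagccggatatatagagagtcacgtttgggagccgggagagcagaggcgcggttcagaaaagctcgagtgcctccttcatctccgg
Soat1: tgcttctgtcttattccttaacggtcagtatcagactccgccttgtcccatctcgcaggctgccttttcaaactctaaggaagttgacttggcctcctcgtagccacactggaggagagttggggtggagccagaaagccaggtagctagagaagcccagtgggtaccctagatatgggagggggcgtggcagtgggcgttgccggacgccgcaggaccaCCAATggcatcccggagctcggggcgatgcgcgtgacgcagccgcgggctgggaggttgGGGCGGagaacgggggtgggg
The Dgat2l6 window held neither motif, whereas Soat1 held CCAAT 30 bases before its start and a GC box at base 30 after it, and Far2 held GC boxes on the opposite strand 126 and 56 bases before. Awat1 held CCAAT on the opposite strand at base 43 after the start, and Awat2 held it 85 bases before. No window of Elovl3 or Mc5r was searched, so the counts that follow leave these genes out. Over the 10 windows of the other 8 genes, CCAAT occurred in 4 and GGGCGG in 4, against 37.4% and 35.7% of 32851 promoter windows. TATAAA and AGGTCA, the half-site of many nuclear receptors, occurred in 0 of the 10, against 13.6% and 16.3% of all. Both strands were searched, no 2 matches overlapped, and a match is a description of the letters only.

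Dgat2l6, an acyltransferase of the DGAT2 family, was the lowest in level per length of the 10 genes and had the largest fold change. It lies on the X chromosome (100524838 to 100546108, + strand, GRCm38) between its relatives Awat2 and Awat1. Its level was 5.81, 3.66 and 3.63 in WT against 3.19, 1.68 and 2.94 CPM in KO. Every WT library was above every KO library, by a margin between the closest pair that was smaller than the range within either genotype. The means were 4.37 ± 1.25 CPM (SD, n = 3) in WT and 2.60 ± 0.807 CPM (SD, n = 3) in KO, a log2 fold change of -0.66 (SE 0.34, adjusted p = 0.998). The 95% interval of the fold ran from 0.365 to 1.10. These values rest on few reads, 24, 18 and 22 implied reads in WT and 21, 6 and 10 in KO. With the adipocyte score as a covariate, an alternative chosen after seeing the data, the log2 fold change was -1.16 and passed an unadjusted p below 0.05, as did 1.68% of all genes on the lower side, and the smallest adjusted p over all alternatives was 0.948.

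Awat1 and Awat2 encode the acyl-CoA wax alcohol acyltransferases, which join fatty acids to fatty alcohols. Awat1 (X, 100572247 to 100578206, + strand) was at 32.9, 23.0 and 17.5 in WT against 24.4, 30.3 and 17.6 CPM in KO. The genotypes overlapped fully, and the log2 fold change was -0.01 (SE 0.28), with a 95% interval of the fold from 0.639 to 1.55. Awat2 (X, 100402222 to 100442717, - strand) was lower per kilobase of exon, at 1.05 against 17.5 CPM per kilobase for Awat1, and it stood at 1.45, 3.46 and 2.80 in WT against 2.28, 1.40 and 2.06 CPM in KO. WT replicate 1, the highest library for Awat1, was the lowest WT library for Awat2. The Awat2 log2 fold change was -0.31 (SE 0.39, 95% interval of the fold from 0.432 to 1.51), and its lowest value, 1.40 CPM in KO replicate 2, stood on 5 implied reads. Expressed as a percent of the Awat1 level in the same library, not corrected for length, Awat2 was 4.41, 15.0 and 16.0% in WT and 9.32, 4.63 and 11.7% in KO. Dgat2l6 was 17.6, 15.9 and 20.8% of Awat1 in WT and 13.0, 5.56 and 16.7% in KO. The observed ratios of the 3 genes thus varied over the libraries. They rest on few implied reads, 5 to 17 per library for Awat2 and 6 to 24 for Dgat2l6. Whether the ratios differed beyond the spread of such small counts was not tested.

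**Figure D1:**
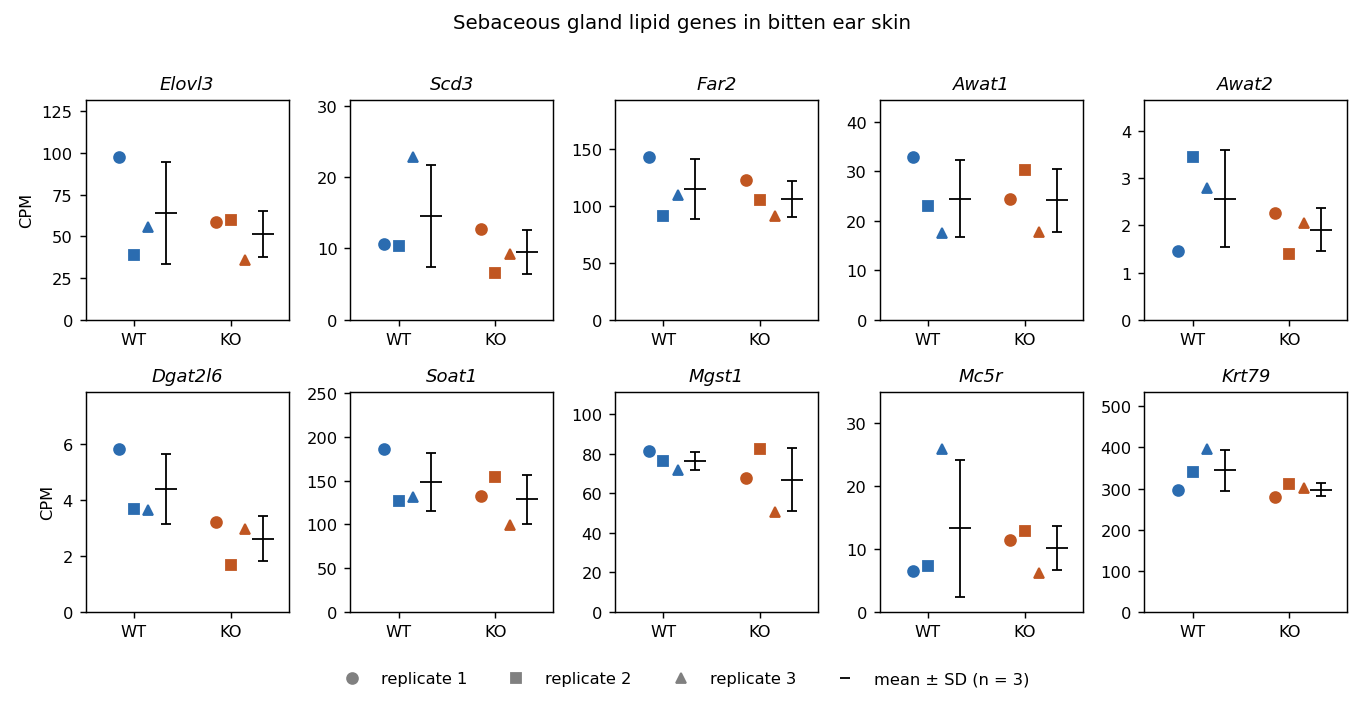
Level in CPM (vertical axes, from 0) of each of the 10 sebaceous gland lipid genes in the 3 WT (blue) and 3 KO (orange) libraries, where marker shapes are replicate numbers and black bars are mean ± SD. Dgat2l6 is the only gene whose WT and KO points do not overlap, and Mc5r and Scd3 each have 1 high point, WT replicate 3, at 25.9 and 22.9 CPM.

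Far2, the fatty acyl-CoA reductase that supplies fatty alcohols for wax esters, was measured at 143, 91.2 and 109.6 in WT against 123, 106 and 91.1 CPM in KO. It lies on chromosome 6 (148047416 to 148182758, + strand), its end overlapping Ergic2 on the opposite strand, and no source used here states whether the counting was strand-aware. The genotypes overlapped, and the log2 fold change was -0.09 (SE 0.18). The 95% interval of the fold, from 0.698 to 1.26, was one of the narrower ones among the 10 genes. Its broadly expressed relative Far1, which makes alcohols for ether lipids in most tissues, had a log2 fold change of -0.31, with 120.1, 96.8 and 77.0 in WT against 84.4, 83.5 and 66.1 CPM in KO.

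Elovl3 and Scd3 act on the acyl chains before they are joined. Elovl3 (chromosome 19, 46131897 to 46135694, + strand), an elongase of very long saturated and monounsaturated fatty acids, overlaps Pitx3 on the opposite strand at its end and was at 97.8, 38.9 and 55.4 in WT against 58.6, 60.0 and 35.8 CPM in KO. WT held both the highest library and one of the lowest, and the WT SD of 30.4 CPM exceeded the difference between the means, 64.0 and 51.5 CPM. The log2 fold change was -0.25 (SE 0.34, 95% interval of the fold from 0.490 to 1.45) and became 0.11 without WT replicate 1. The other elongases measured were close to 0 on the same scale, with Elovl1 at 0.07, Elovl4 at 0.02, Elovl6 at -0.03 and Elovl7 at 0.16, while Elovl5 was at -0.21 with no overlap between the genotypes. The directions of Elovl1, Elovl4, Elovl6 and Elovl7 turned under at least 1 alternative.

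Scd3 (chromosome 19, 44203288 to 44244016, + strand), a stearoyl-CoA desaturase of sebocytes, was at 10.6, 10.3 and 22.9 in WT against 12.7, 6.55 and 9.19 CPM in KO. Only WT replicate 3 stood above the KO range. The log2 fold change was -0.54 (SE 0.36, 95% interval of the fold from 0.383 to 1.23) and -0.18 without that library. Scd1, the main desaturase of skin and fat, was more abundant per kilobase of exon, at 685 against 3.39 CPM per kilobase, and it stood at 4500, 4224 and 3089 in WT against 2768, 3232 and 2291 CPM in KO. Scd1 had a log2 fold change of -0.51 (SE 0.19, adjusted p = 0.998), with KO replicate 2 above WT replicate 3. It passed an unadjusted p below 0.05 with all libraries, but not when WT replicate 1 (-0.40) or 2 (-0.45) or KO replicate 1 (-0.51) or 3 (-0.38) was left out, in limma without the trend (-0.51), or with the hair follicle (-0.41) or adipocyte score (-0.46). The Scd3 level was 0.235, 0.244 and 0.741% of that of Scd1 in WT and 0.458, 0.203 and 0.401% in KO, so WT replicate 3 combined the highest Scd3 with the lowest Scd1 of its genotype. Of the 50-base stretches of the Scd3 transcripts, 6.54% (229 of 3499) recur in Scd1, Scd2 or Scd4, and the counting could divide such reads between genes, which makes the small Scd3 values uncertain. Scd2 had a log2 fold change of 0.05, which turned to -0.11 when the hair follicle score was a covariate, and Scd4 was below a mean of 1 CPM and was not tested.

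Soat1 esterifies cholesterol for sebum, and Mgst1 is a membrane-bound glutathione transferase abundant in sebocytes. Soat1 (chromosome 1, 156428108 to 156474328, - strand) was at 186, 127 and 131 in WT against 132, 154 and 99.0 CPM in KO. The overlap was wide, and the log2 fold change was -0.20 (SE 0.20, 95% interval of the fold from 0.627 to 1.20), or -0.03 without WT replicate 1. Its relative Soat2 was below a mean of 1 CPM. Mgst1 (chromosome 6, 138140527 to 138156754, + strand) was at 81.1, 76.3 and 71.6 in WT against 67.7, 82.4 and 50.5 CPM in KO. Here KO held both the highest and the lowest library, and the WT values lay within the KO range, with a log2 fold change of -0.22 (SE 0.18, 95% interval of the fold from 0.648 to 1.15). The log2 fold changes of Mgst2 and Mgst3 were 0.52, without overlap and higher in KO, and -0.24.

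Mc5r and Krt79 are not enzymes. Mc5r (chromosome 18, 68337511 to 68342446, + strand) encodes the melanocortin receptor through which melanocortin peptides raise sebum output. It was at 6.54, 7.32 and 25.9 in WT against 11.4, 12.9 and 6.17 CPM in KO. The WT values averaged 13.2 CPM with an SD of 10.95 CPM (n = 3), and WT replicate 3 lay far above the other WT libraries. The log2 fold change was -0.15 (SE 0.52), with a 95% interval of the fold from 0.391 to 2.08, and it turned to 0.46 without WT replicate 3. Krt79 (chromosome 15, 101929332 to 101940324, - strand), a keratin of the sebaceous duct and the upper hair follicle, was at 295.5, 339.7 and 396 in WT against 279.9, 311 and 301 CPM in KO. WT replicate 1 lay within the KO range and the other WT libraries above it, with a log2 fold change of -0.20 (SE 0.12) and the narrowest interval of the 10, from 0.712 to 1.06 as a fold. It was -0.31 without WT replicate 1, where it passed an unadjusted p below 0.05, as did 353 of 14278 genes on the lower side, and -0.09 without WT replicate 3.

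**Figure D2:**
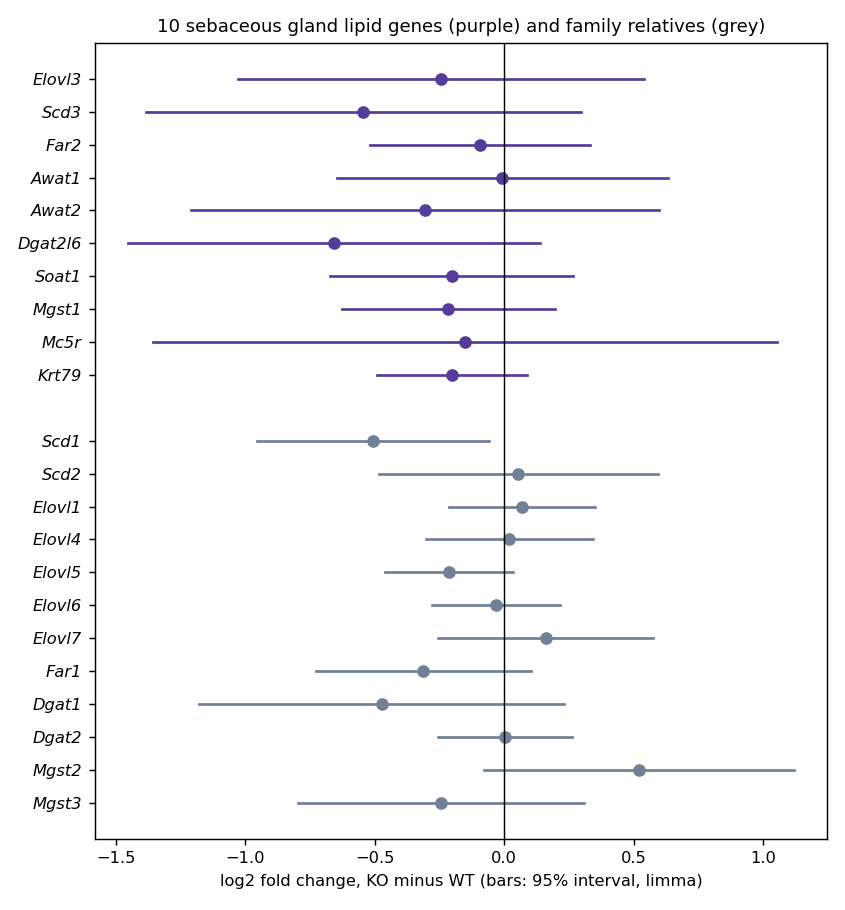
Log2 fold change, KO minus WT (horizontal axis), with its 95% interval from limma for the 10 sebaceous gland lipid genes (purple) and 12 tested relatives of their families (grey). All 10 purple points lie below 0 with intervals that include 0, and Scd1 is the only gene drawn whose interval excludes 0.

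Per kilobase of exon, Krt79 was the most abundant of the 10, at a mean of 67.4 CPM per kilobase, and its lowest library was above the highest of any other. Mgst1 (35.6) and Elovl3 (29.2 CPM per kilobase) came next and overlapped each other. Awat1 (17.5), Far2 (15.1) and Soat1 (14.1 CPM per kilobase) formed a group whose ranges overlapped, and Elovl3 reached down into it. Scd3 (3.39) and Mc5r (2.996 CPM per kilobase) overlapped each other and lay wholly below that group, and Awat2 (1.05) and Dgat2l6 (0.735 CPM per kilobase) overlapped at the bottom, where the highest Awat2 library, at 1.63, just passed the lowest Mc5r library, at 1.58. Scd1 stood at 685 CPM per kilobase and Dgat2, which makes triglycerides in many cells, at 82.1, both above every one of the 10 genes on average. Exon lengths were taken from the GENCODE annotation of GRCm38, which may differ from the release used in the counting, and an overlap of ranges is no test.

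The 10 genes did not share 1 pattern over the libraries. Elovl3, Awat1, Soat1, Far2 and Dgat2l6 were all highest in WT replicate 1, where the level on the log2 scale exceeded the mean of the gene by 0.83, 0.47, 0.45, 0.39 and 0.73. The promoter windows of 4 of these 5, printed above, ranged from no match in Dgat2l6 to both motifs in Soat1. Scd3, Krt79 and Mc5r were highest in WT replicate 3, the latter by 1.30, and this was the library with the most hair follicle transcripts, whereas WT replicate 1 had the fewest. The remaining genes, Awat2 and Mgst1, were highest in WT replicate 2 and KO replicate 2. Of the 10 genes, 5 were lowest in KO replicate 3, 3 in KO replicate 2, and 1 each in KO replicate 1 and WT replicate 3. Summed over the 10, the level was 861, 721 and 837 in WT against 715, 766 and 615 CPM in KO, a sum of which Krt79 is the largest share.

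When the mean log2 level of the 22 hair follicle genes was added to the fit as a covariate, 3 of the 10 genes had an unadjusted p below 0.05, all lower in KO: Mc5r (-0.70), Krt79 (-0.29) and Scd3 (-0.79). In the same fit 3.99% of all genes were lower and 2.1% higher at that p, shares above those without the covariate. These are the 3 genes highest in WT replicate 3, the library with the highest score, and the smallest adjusted p of this fit among the 3 was 0.746. The part that the number or state of hair follicles had in these values was not tested.

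**Figure D3:**
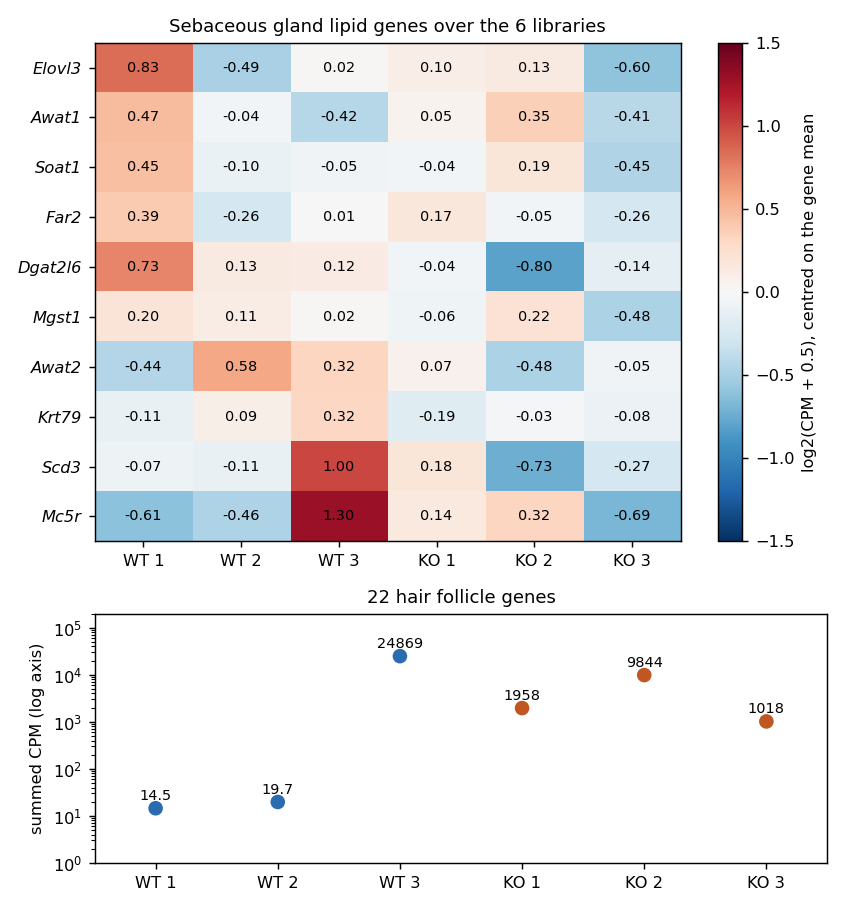
Upper panel, log2(CPM + 0.5) of the 10 sebaceous gland lipid genes (rows) in the 6 libraries (columns), each centred on the mean of the gene, red above and blue below it. Lower panel, the summed CPM of 22 hair follicle genes in the same libraries on a log axis, from 14.5 in WT replicate 1 to 24869 in WT replicate 3, the library in which Mc5r and Scd3 are reddest.

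By the rule applied, the 8 other genes nearest to the mean pattern of the 10, among genes averaging 5 CPM or more, were Eif2b2, Crtc3, Vps72, Ints7, Grsf1, Mid1ip1, Gtf3c6 and Rexo2. Their root mean square differences from the pattern over the 6 libraries were 0.05 to 0.07 on the log2 scale, and their own log2 fold changes ran from -0.37 to -0.16. None of the 8 belongs to the sebaceous or marker lists.

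Other genes of lipid synthesis in sebocytes were read from a list of 42 genes, of which 41 were in the table and 38 were tested. Their log2 fold changes were below 0 in 24 and above 0 in 14. The share below 0 was 63.2%, against 56.7% of all tested genes. The median was -0.09, against -0.03 over all tested genes. With limma, 4 were lower and 1 higher in KO at an unadjusted p below 0.05, against the background of 1.82% and 1.06%, and 0 passed after adjustment, the smallest adjusted p being 0.890. In 5 the KO values lay wholly below WT and in 2 wholly above, to be read against 7.84% of all genes. Leaving out 1 library at a time gave 3 to 6 lower and 0 to 2 higher, with 0 higher without WT replicate 1 or without KO replicate 1.

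Fasn, the fatty acid synthase that makes the palmitate from which sebum and storage lipids are built, had the smallest p of these. It was at 811, 808 and 760 in WT against 539.5, 576 and 501 CPM in KO. The lowest WT library exceeded the highest KO library by more than the range within either genotype. The resulting log2 fold change of -0.56 (SE 0.10, adjusted p = 0.890) became -0.52 with the adipocyte score as a covariate. It passed an unadjusted p below 0.05 under each of the 17 alternatives. Acaca, the carboxylase upstream of Fasn, also did not overlap, at 176, 162 and 153 in WT against 143, 143 and 137 CPM in KO, with a log2 fold change of -0.21. Acaca was named after its values were seen.

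Agpat2 and Gpd1, which act early in the assembly of triglycerides, did not overlap between genotypes either. Agpat2 was at 24.2, 33.4 and 24.6 in WT against 14.0, 20.2 and 14.7 CPM in KO, with a log2 fold change of -0.74. Gpd1 was at 45.5, 72.2 and 77.0 in WT against 15.3, 42.9 and 31.1 CPM in KO, with a log2 fold change of -1.19. Fat cells also express both. With the adipocyte score as a covariate, chosen after seeing the data, the values became -0.46 and -0.49, no longer past an unadjusted p below 0.05, like that of Scd1 at -0.46. The part of fat cell content in these values was not tested. Agpat2 and Gpd1 stayed past that p with each library left out in turn. The last step of triglyceride synthesis gave -0.47 for Dgat1 and 0.00 for Dgat2, both with overlap. Acsbg1, an acyl-CoA synthetase, was the single gene higher in KO at an unadjusted p below 0.05, at 126, 138 and 128 in WT against 165, 152 and 155 CPM in KO, with a log2 fold change of 0.27. That did not hold when WT replicate 1 (0.25) or 3 (0.25) or KO replicate 1 (0.24) was left out, in limma without the trend (0.27), or with the adipocyte score (0.25). Next in that direction were Mgst2, given above, and the fatty acid transporter family member Slc27a3, at 0.42.

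**Figure D4:**
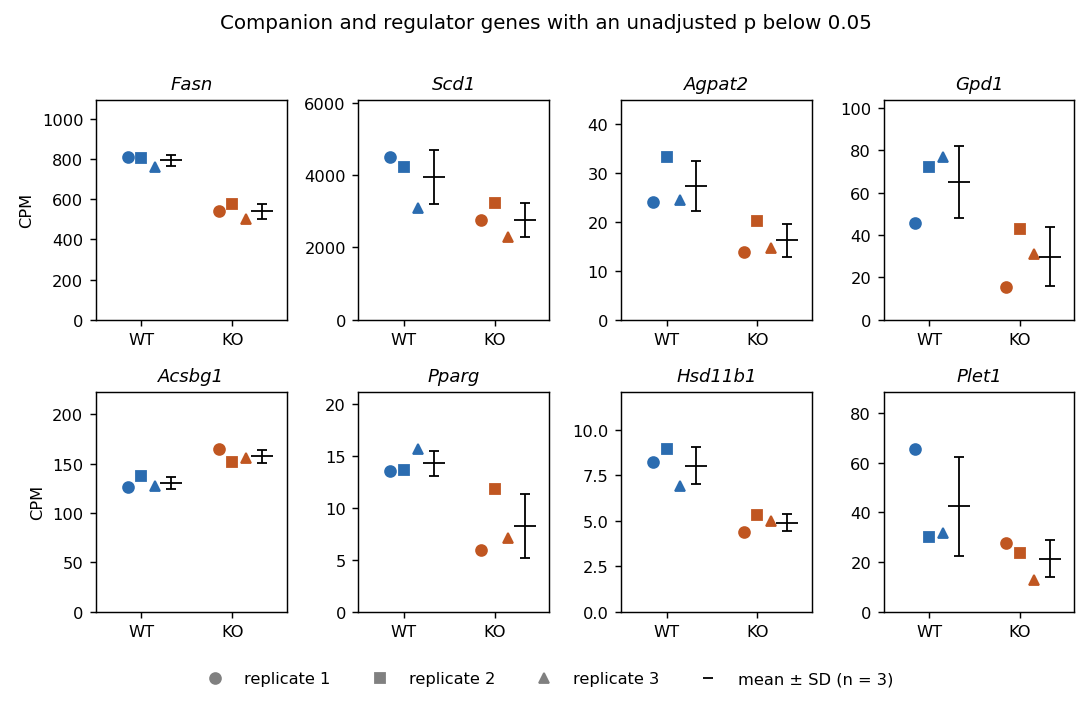
Level in CPM (vertical axes, from 0) of the 8 listed genes of sebocyte lipid synthesis and gland regulation with an unadjusted limma p below 0.05, in WT (blue) and KO (orange), where marker shapes are replicate numbers and black bars are mean ± SD. Fasn, Agpat2, Gpd1, Pparg, Hsd11b1 and Plet1 lie lower in KO without overlap, Scd1 lower with overlap and Acsbg1 higher without overlap.

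Regulators and progenitor markers of the gland formed a list of 21, with 19 in the table and 18 tested. The median log2 fold change of the 18 was -0.06, against -0.03 over all tested genes. Of the 18, 12 lay below 0, which is 66.7% against 56.7% of all genes. With limma, 3 were lower and 0 higher in KO at an unadjusted p below 0.05, against 1.82% and 1.06% of all genes, and 0 passed after adjustment. Pparg, the nuclear receptor that drives both sebocyte and fat cell differentiation, was at 13.6, 13.6 and 15.7 in WT against 5.92, 11.8 and 7.05 CPM in KO. The groups were apart, with a log2 fold change of -0.81 (SE 0.27), which was no longer past the unadjusted threshold without KO replicate 1 (-0.62), without KO replicate 3 (-0.73) or with the adipocyte score as a covariate (-0.39). Hsd11b1, which activates glucocorticoids, was at 8.23, 8.95 and 6.92 in WT against 4.40, 5.32 and 4.99 CPM in KO, a log2 fold change of -0.66. It was not past that threshold when WT replicate 1 (-0.64) or 2 (-0.58) or KO replicate 1 (-0.59) was left out, or with the hair follicle (-0.59) or adipocyte score (-0.59). Plet1, a marker of the follicle junction above the gland, was at 65.6, 30.3 and 31.8 in WT against 27.6, 23.8 and 12.9 CPM in KO, a log2 fold change of -0.95 that was not past it without WT replicate 1 (-0.59) or KO replicate 3 (-0.63), in limma without the trend (-0.95) or with voom (-0.85). Over the libraries left out, 1 to 4 regulators were lower, with 1 each without replicate 1 of WT, replicate 1 of KO or replicate 3 of KO, and 4 each without WT replicate 3 or KO replicate 2. On the side of higher means in KO stood Rxra, the partner receptor of Pparg, at 0.19 (no overlap), Srebf2 at 0.20 and Cebpa at 0.10.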

How the data were processed

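Ear skin RNA of 3 WT and 3 KO mice was sequenced in pairs of reads (TruSeq, HiSeq). Per the study's methods and the submitters' processing notes, reads were trimmed, aligned to mm10 with STAR 2.7.3a and quantified per gene in Partek by its E/M algorithm, which can divide a read among genes. The deposited values are CPM: the authors scaled each gene count to the library total, plus an offset of 0.0001. These are no counts, so no count model was used. The spacing of low values implied the reads per library, with 91.9 to 92.6% of low values within 0.1 of a whole read. Precision is limited by these depths and by 3 mice per group.

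From the CPM values, less the added 0.0001, log2(CPM + 0.5) was computed, genes with a mean below 1 CPM were left out, and KO was compared with WT in limma 3.58.1 (R 4.3.3, lmFit, eBayes with trend, two-sided), with Benjamini-Hochberg adjustment over all 14306 genes. Every threshold not called adjusted is unadjusted. The scripts were tested on simulated data. Groups and replicate numbers came from the sample titles. The text names the 10 genes, their family relatives, up to 3 genes per direction of smallest p from the lipid synthesis and regulator lists, and the 8 genes nearest in pattern, and says where others were named after their values were seen. The 10 genes and all lists were chosen with earlier results of these data known. There were 17 alternatives: other pseudocounts, filters, scalings, fits and covariates, a replicate block, and each library left out; the adipocyte covariate was chosen after seeing the data. Same-numbered WT and KO libraries deviated with correlations of 0.376, -0.306 and -0.222, so the numbers were not taken as pairs. Promoter windows and motifs came from RefSeq.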

Additional observations from a re-analysis of the deposited data

How the results depend on the processing

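Under the 17 alternatives 0 of the 10 genes passed an adjusted p. Counts at an unadjusted p below 0.05 did move. When the hair follicle score entered the fit, 3 of the 10 genes, 7 lipid synthesis genes lower and 2 higher passed, while 571 of all genes were lower and 301 higher, against 260 and 152 without it. With the adipocyte score, 1 of the 10 (Dgat2l6), 2 lipid synthesis genes and 1 regulator were lower, as were 240 of all genes. Quantile normalization gave 2 lipid synthesis genes higher, and median-of-ratios rescaling 1 regulator higher. Of all genes, 232 and 210 were higher under these, against 152 in the main fit. Non-overlap among the 10 was 0 with quantiles and 0 with the filter at 5 CPM, which left Awat2 and Dgat2l6 untested. Leaving out each library in turn gave 0 to 1 of the 10 lower (Krt79 without WT replicate 1). It gave 0 to 2 lipid synthesis genes higher and 1 to 4 regulators lower. Of the 10, 1 to 3 then did not overlap. These were Awat2, Krt79 and Dgat2l6 without WT replicate 1, and Scd3 and Dgat2l6 without KO replicate 1. Without KO replicate 2 they were Mgst1 and Dgat2l6. Separation is easier to reach with fewer libraries, and the share of all genes was not computed for these sets. Log2 fold changes that turned were Elovl3 (-0.55 to 0.11 over the libraries left out), Awat1 (-0.22 to 0.23; 0.022 with median-of-ratios, 0.040 with quantiles, 0.043 with voom, 0.11 with the hair follicle score), Far2 (-0.25 to 0.080) and Mc5r (-0.49 to 0.46; 0.39 with the adipocyte score), and, among relatives, Scd2 (-0.11 to 0.31; -0.11 with the hair follicle score), Elovl1 (-0.024 to 0.16; -0.033 with the adipocyte score), Elovl4 (-0.067 to 0.13; -0.19 with that score), Elovl6 (-0.12 to 0.030), Elovl7 (-0.19 with that score) and Dgat2 (-0.068 to 0.083; -0.020 with that score). The cause was not tested. In the fit with a replicate block, 414 of all genes were lower and 177 higher at an unadjusted p below 0.05, against 260 and 152 without it, and 0 of the 10 passed. Without any 1 library, 147 to 395 of all genes were lower and 89 to 313 higher at that p. The depth gave at most 24 implied reads per library for Awat2 and Dgat2l6, where small differences were not detectable.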

Other observations

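Several genes outside the set followed one or another of its members over the 6 libraries, all named after their values were seen and given as a description with no test. Nearest to Scd3 were Cyp2s1, Itga2b, Mettl23, Tada2a and Sema6c, at root mean square differences of 0.18 to 0.22 on the log2 scale. Those nearest to Elovl3 were, in order, Chchd7, Grwd1, Zfp7, Ces4a and Fa2h, at 0.13 to 0.16. Of these, Fa2h, the fatty acid 2-hydroxylase of sebum and skin lipids, was at 283, 131 and 150.2 in WT against 207, 224 and 124 CPM in KO. Cidea, a lipid droplet protein of sebocytes, was also highest in WT replicate 1 and lowest in KO replicate 3, at 22.5, 12.4 and 17.3 in WT against 19.3, 21.0 and 10.9 CPM in KO. Both had log2 fold changes near 0, 0.02 and -0.04.

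Nearest to Mc5r were Irx4, Lap3, Unc5b, Foxn1 and Alcam, at root mean square differences of 0.16 to 0.22. Foxn1, a transcription factor of hair and epidermal keratinocytes, was at 16.0, 16.5 and 49.8 in WT against 21.7, 33.9 and 18.2 CPM in KO. Like Mc5r it was highest in WT replicate 3. The desaturases Fads2 and Fads3 were highest there too, Fads2 at 9.92, 11.6 and 36.4 in WT against 9.41, 18.8 and 8.23 CPM in KO, and Fads3 at 15.7, 18.5 and 73.5 in WT against 19.0, 47.6 and 11.5 CPM in KO. Sox9 and Lrig1, markers of follicle and gland progenitors, peaked in the same library at 157 and 107 CPM.

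Mrap, an accessory protein of melanocortin receptors that fat cells also express, was at 2.90, 2.85 and 2.47 in WT against 0.152, 2.80 and 0.294 CPM in KO. The values of KO replicates 1 and 3 lay below the level of 3 implied reads there, 0.455 and 0.881 CPM. KO replicate 2, the KO library with the highest summed adipocyte level (1498 CPM), was the only KO library in the WT range, and the log2 fold change was -1.44 (adjusted p = 0.998).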
